A study of Mus musculus with 24 samples.

Results

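The genes described here encode the beta-1,3-galactosyltransferases B3galt1, B3galt2, B3galt4, B3galt5 and B3galt6 and the beta-1,3-N-acetylglucosaminyltransferases B3gnt2 and B3gnt5, enzymes of the Golgi that add galactose or N-acetylglucosamine to sugar chains in a beta-1,3 linkage. They were taken by name: every probe set whose transcript maps to one of the 7 genes was kept, which gave 8 of the 1246 probe sets on the array, or 7 of its 909 named genes. B3galt1 has 2 probe sets. The RNA came from whole mouse retina and was hybridized to a glycan-focused Affymetrix array, 1 sample to an array. Retinas of P347S+ mice, called RP mutant in the labels and here mutant, carry a rhodopsin mutation in a transgenic model of retinitis pigmentosa in which rods are lost over months. They were set against retinas of P347S- mice, here normal. Both genotypes were sampled in each of the first 4 months, at 1, 2, 3 and 4, with 3 arrays each time and 24 in all. The sex is given as unknown, and the strain, the promoter of the transgene and whether the arrays of a group hold separate animals are not given in the sources used here, so p-values measure the spread between these samples, which may be technical.

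Sugar chains are built 1 residue at a time, and a beta-1,3 step often decides which chain is made. In the glycoproteins of a cell surface, B3gnt2 and a beta-1,4-galactosyltransferase act in turns and build polylactosamine, the chain that galectins bind and that sialic acid or fucose caps. B3galt1, B3galt2 and B3galt5 put galactose on N-acetylglucosamine and so close a chain of the other type. In glycolipids, B3gnt5 starts the lacto-series on lactosylceramide, and B3galt4 adds galactose to gangliosides, the sialic acid lipids that are abundant in neurons. B3galt6 makes a galactose of the short linker that joins heparan and chondroitin sulfate to their core proteins.

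The promoters of the genes whose values the results turn on are shown first, as the 250 bases before a RefSeq transcript start (build GRCm38.p6), read 5′ to 3′ on the strand of the gene. B3gnt2 and B3galt1 are shown because they were higher in mutant retinas together, and B3gnt5 because 3 arrays set it apart. Capitals mark GGGCGG, the GC box, and CCAAT, searched on both strands, so that CCAAT on the other strand stands as ATTGG. RefSeq lists 1 start for B3gnt2 and B3gnt5 in the table used and 2 for B3galt1.
B3gnt2, chr11:22859736-22859985, minus strand: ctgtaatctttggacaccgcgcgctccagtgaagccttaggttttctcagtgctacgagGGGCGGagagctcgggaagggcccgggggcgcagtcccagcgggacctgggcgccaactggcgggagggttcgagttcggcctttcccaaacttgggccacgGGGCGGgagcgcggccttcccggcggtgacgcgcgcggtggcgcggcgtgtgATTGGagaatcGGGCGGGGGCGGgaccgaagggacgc
B3galt1, first start, chr2:67565439-67565688, plus strand: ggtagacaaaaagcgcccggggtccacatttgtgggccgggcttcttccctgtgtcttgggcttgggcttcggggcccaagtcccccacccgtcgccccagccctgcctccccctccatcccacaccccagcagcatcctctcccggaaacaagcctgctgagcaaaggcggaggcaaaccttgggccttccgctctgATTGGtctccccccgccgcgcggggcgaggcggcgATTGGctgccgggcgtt
B3galt1, second start, chr2:68104422-68104671, plus strand: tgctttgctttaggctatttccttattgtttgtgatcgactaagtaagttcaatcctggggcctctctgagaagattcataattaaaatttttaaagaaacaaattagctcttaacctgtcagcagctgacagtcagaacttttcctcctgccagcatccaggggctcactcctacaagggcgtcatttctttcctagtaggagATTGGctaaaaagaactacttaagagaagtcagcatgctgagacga
B3gnt5, chr16:19759984-19760233, plus strand: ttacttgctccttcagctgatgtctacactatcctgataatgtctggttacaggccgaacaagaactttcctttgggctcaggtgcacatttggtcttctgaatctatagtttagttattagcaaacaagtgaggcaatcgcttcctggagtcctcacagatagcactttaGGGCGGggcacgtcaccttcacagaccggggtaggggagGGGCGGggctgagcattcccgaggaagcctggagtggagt

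The B3gnt2 window was 70.0% G and C, against a median of 52.4% over 32851 promoter windows of the same length. It held GGGCGG 4 times, beginning 191, 89, 26 and 20 bases before the start, and ATTGG 37 bases before it. Over the 10 windows of the 7 genes the share of G and C ran from 36.8% (B3galt2) to 71.6% (B3galt6). It was 68% and 41.2% in the B3galt1 windows and 51.2% in that of B3gnt5. The 2 B3galt1 windows held no GC box. The first B3galt1 window had ATTGG 52 and 17 bases before the start, and the second 46 bases before it. B3gnt5 had GGGCGG 79 and 40 bases before the start and no CCAAT. Of all 32851 windows, 32.7% held a GC box and 33.8% held the CCAAT box. The letters TATAAA, found in 12.4% of windows, and TAATCC, the core letters bound by the photoreceptor factors CRX and OTX2, found in 6.25%, were in none of the 10 windows of the 7 genes on either strand. B3galt4, with 1 GC box 6 bases before its start, was the only other one of the 7 with any of these letters. These matches describe letters in a window and do not show that a factor binds there.

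Values are log2 signals after RMA, a method meant to put arrays on 1 scale, though its steps are not given here. A difference of 1.00 is a doubling of signal. The level of 1 probe set cannot be set against that of another, because probes differ in how brightly they bind. Each genotype difference is mutant minus normal from 1 limma fit of all 1246 probe sets, with its standard error (SE) and a p-value adjusted over all of them by the Benjamini-Hochberg method. A probe set passed when the adjusted p was under 0.05. In the probe set names, suffix x marks probes shared with other transcripts and suffix s probes shared by several transcripts, so the B3galt1 x probe set and those of B3gnt2 and B3galt2 (s) may not read the named gene alone.

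B3gnt2 and B3galt1 were higher in mutant retinas, at 1.48 and 1.40 to 1.46 times the normal signal over the 4 ages. B3galt2 was 1.10 times higher at a very low signal. B3galt4, B3galt5, B3galt6 and B3gnt5 did not pass. Thus 4 of the 8 probe sets, of 3 genes, passed over the 4 ages and all 4 were higher, where 22.6% of all probe sets passed, 13.8% higher and 8.83% lower. The median difference was 0.12 over the 8 probe sets and -0.03 over all 1246. The numbers that passed at the single ages, youngest first, were 0, 3, 4 and 3, where 0.321%, 3.45%, 12% and 12.9% of all probe sets passed. At 1 month 3 of the 8 had an unadjusted p under 0.05 in limma, and 9.23% of all did. In whole retina, fewer cells of a type and less RNA per cell cannot be told apart, and this holds for every value below.

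**Figure D1:**
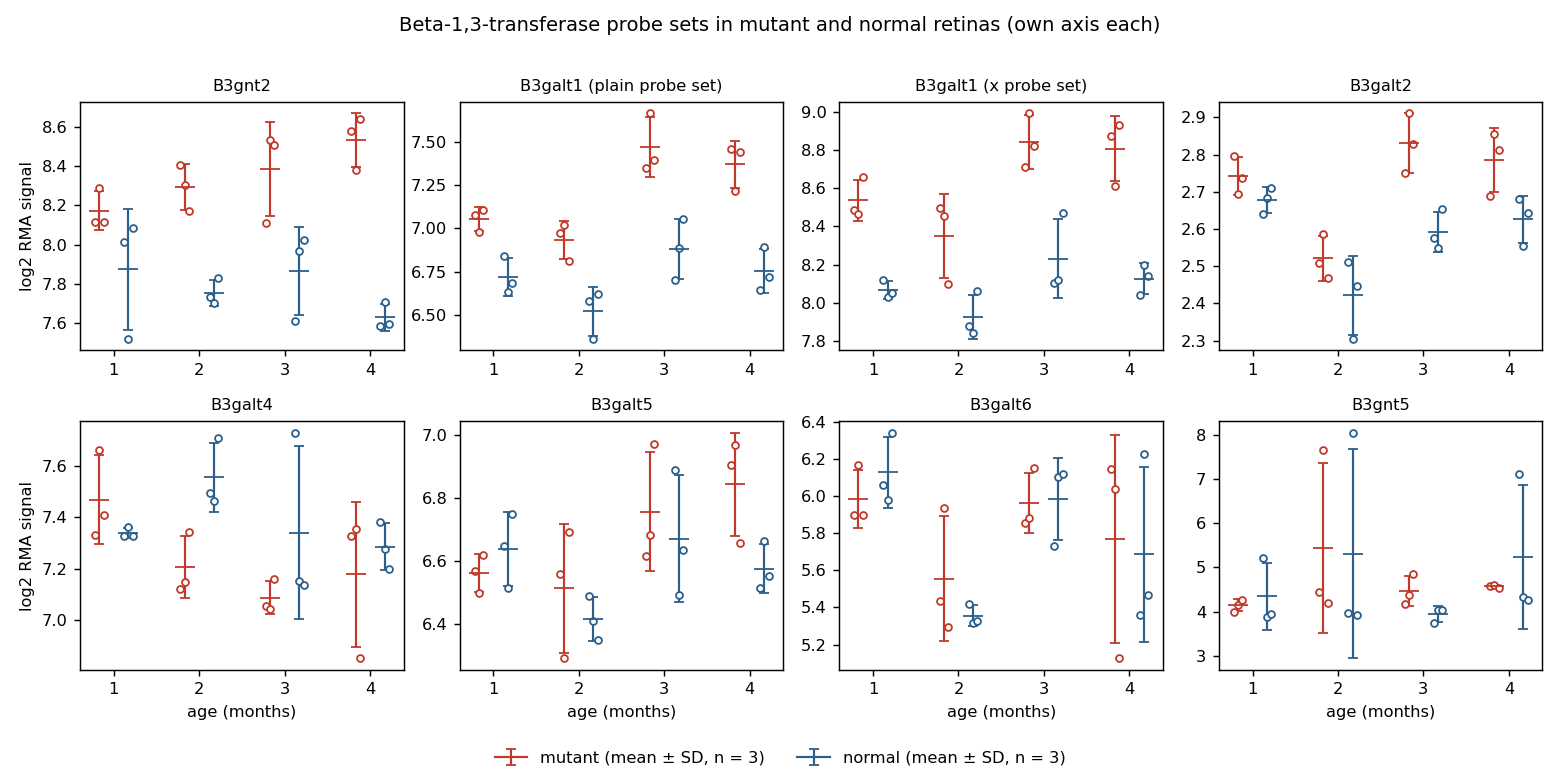
Log2 RMA signal of the 8 probe sets in each array (circles) by age in months, mutant arrays in red to the left of normal arrays in blue, with the mean and SD of 3 arrays. Each panel has its own axis. B3gnt2 in mutant arrays lies at 8.11 or above and in normal arrays at 8.09 or below, and B3gnt5 lies above 7 in 3 arrays.

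B3gnt2, the polylactosamine synthase, separated the genotypes in every age group. At 1 month it read 8.11, 8.29 and 8.12 in mutant retinas, against 8.02, 7.52 and 8.09 in normal retinas. At 2 months it read 8.40, 8.30 and 8.17 in mutant retinas, against 7.73, 7.70 and 7.83 in normal retinas. The arrays of 3 months read 8.11, 8.53 and 8.51 in mutant retinas, against 7.61, 7.97 and 8.02 in normal retinas. The gap was narrow at 1 month, where normal replicates 1 and 3 lay just under the mutant arrays and replicate 2 well below them. At 4 months it read 8.58, 8.38 and 8.64 in mutant retinas, against 7.58, 7.71 and 7.60 in normal retinas. No normal array of any age reached the lowest mutant array (12 against 12). Of all probe sets, 0.722% were higher in mutant retinas with no overlap over the 24 arrays.

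The B3gnt2 difference was 0.56 ± 0.07 over the 4 ages (SE, 12 arrays against 12, limma adjusted p = 4.19e-06). By age it was 0.30 ± 0.14 in month 1 (adjusted p = 0.516), 0.54 ± 0.14 in month 2 (0.0367), 0.52 ± 0.14 in month 3 (0.0199) and 0.90 ± 0.14 in month 4 (0.00019), the last a fold of 1.87 (95% confidence interval 1.53 to 2.28). The difference at 4 months exceeded that at 1 month by 0.60 ± 0.19, which did not pass (limma adjusted p = 0.156). Its mean in mutant retinas was 8.53 at 4 months and 8.17 at 1 month (difference 0.36 ± 0.14, adjusted p = 0.197). In normal retinas it was 7.63 at 4 months and 7.87 at 1 month (-0.24 ± 0.14, adjusted p = 0.774). Without normal replicate 2 of 1 month, the lowest of all 24 arrays, the difference at 4 months exceeded that at 1 month by 0.78 and passed (adjusted p = 0.0483).

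B3galt1 was higher in mutant retinas on both of its probe sets. The probe set with no suffix read 7.08, 6.98 and 7.10 in mutant and 6.84, 6.63 and 6.68 in normal retinas at 1 month. At 2 months it read 6.98, 7.02 and 6.81 in mutant and 6.58, 6.36 and 6.62 in normal retinas. Its signal at 3 months was 7.35, 7.66 and 7.39 in mutant and 6.71, 6.89 and 7.05 in normal retinas. All 3 mutant arrays lay above all 3 normal arrays at each of these ages. At 4 months it read 7.46, 7.21 and 7.44 in mutant and 6.64, 6.89 and 6.72 in normal retinas, again with no overlap. Across ages the genotypes overlapped, since mutant retinas of 2 months (6.81 to 7.02) fell within the range of normal retinas of 3 months (6.71 to 7.05). Both genotypes had their lowest B3galt1 mean at 2 months and their highest at 3 months on this probe set.

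The x probe set of B3galt1 gave the same order of genotypes. It read 8.49, 8.46 and 8.66 in mutant and 8.12, 8.03 and 8.05 in normal retinas at 1 month. The 2-month arrays read 8.50, 8.45 and 8.10 in mutant and 7.88, 7.84 and 8.06 in normal retinas. Its values at 3 months were 8.71, 8.99 and 8.82 in mutant and 8.10, 8.12 and 8.47 in normal retinas. The closest approach was at 2 months, between mutant replicate 3 at 8.10 and normal replicate 3 at 8.06. The 4-month arrays read 8.87, 8.61 and 8.93 in mutant and 8.04, 8.20 and 8.14 in normal retinas. Over the 24 arrays the 2 probe sets had a Pearson r of 0.97. They may share probes or target, so they do not count as 2 genes.

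Over the 4 ages the B3galt1 difference was 0.49 ± 0.05 on the probe set with no suffix (adjusted p = 1.31e-06) and 0.54 ± 0.06 on the x probe set (9.71e-07). On the first it was 0.33 ± 0.11 in month 1 (adjusted p = 0.195), 0.41 ± 0.11 in month 2 (0.0378), 0.59 ± 0.11 in month 3 (0.00174) and 0.62 ± 0.11 in month 4 (0.000658). On the x probe set it was 0.47 ± 0.12 in month 1 (0.0903), 0.42 ± 0.12 in month 2 (0.0488), 0.61 ± 0.12 in month 3 (0.00252) and 0.68 ± 0.12 in month 4 (0.000652). The difference at 4 months exceeded that at 1 month by 0.28 ± 0.15 and 0.21 ± 0.17, neither past the threshold (adjusted p = 0.503 and 0.757). The x probe set passed at 1 month without mutant replicate 3 of 2 months (0.0283) or normal replicate 3 of 3 months (0.0484), arrays that enter that comparison only through the shared spread.

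At 2 months arrays of equal replicate number departed alike from their group means. Each array's departure from its group mean, correlated over all probe sets with that of the array of equal number in the other genotype, gave an r of 0.33, 0.66 and 0.25 there. Both replicate 2 arrays of 2 months had a high Grifin signal, as described below. The departures of 3 arrays from their mean cancel out, so these 3 values are not independent. An unusual replicate 2 in both genotypes would raise the other 2 values, so a pairing by number is not shown. Fitted on the 6 arrays of 2 months with the number as a block, an alternative chosen after seeing the data, B3gnt2 had an adjusted p of 0.0615 and the B3galt1 probe sets 0.119 and 0.174 (x), with the differences as above and no probe set of the 8 past the threshold. With the block in the fit of all 24 arrays, B3gnt2 passed (0.0438) and B3galt1 did not (0.0572 and, for the x probe set, 0.0626). Without the 3 arrays of high Grifin signal described below, which leaves 2 arrays of each genotype at 2 months, none passed (B3gnt2 0.232, B3galt1 0.43 and 0.445). The calls at 2 months also rest on single arrays. B3gnt2 did not pass without mutant replicate 1 (0.1), mutant replicate 2 (0.101) or normal replicate 1 (0.0572), 2 (0.113) or 3 (0.0881) of that age. B3galt1 on the probe set with no suffix did not pass without mutant replicate 1 (0.092), mutant replicate 2 (0.148), normal replicate 2 (0.17) or normal replicate 3 (0.0731). The x probe set, at 0.0488, passed without 7 single arrays and did not pass without the other 17, which include all of 1 month (0.053 to 0.0614) and all but mutant replicate 3 of 2 months (0.0771 to 0.189). Those of the later ages were mutant replicate 3 and normal replicate 1 of 3 months, and mutant replicate 1 and all 3 normal replicates of 4 months (0.0517 to 0.0592).

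At 3 months B3gnt2 did not pass without mutant replicate 2 (0.0838), mutant replicate 3 (0.0838) or normal replicate 1 (0.108). Nor did it pass when the signals of Grifin and Dcn (decorin, of connective tissue) entered the fit as covariates, where the difference was 0.47 (0.0557). The B3galt1 calls at 3 and 4 months and the B3gnt2 call at 4 months passed without each of the 24 arrays in turn, as did the calls over the 4 ages.

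**Figure D2:**
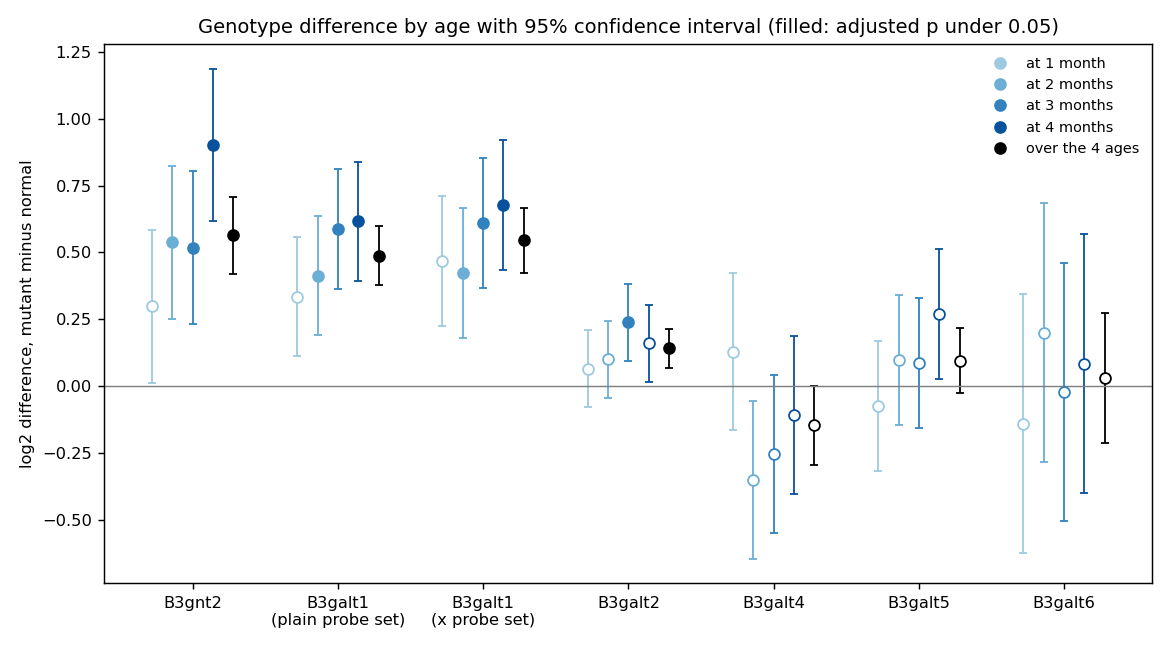
Log2 difference, mutant minus normal, of 7 probe sets at each age (light to dark blue) and over the 4 ages (black), with the 95% confidence interval of the limma fit. Filled circles passed at an adjusted p under 0.05. B3gnt2 at 4 months has the highest value, 0.90. B3gnt5 is left out because its interval over the 4 ages runs from -1.01 to 0.89.

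B3galt2, like B3galt1 a galactosyltransferase of N-acetylglucosamine, had the lowest signal of the 7 genes. It read 2.30 to 2.91 over the 24 arrays, with a mean of 2.65 that lay below the 25th percentile of mean signals (3.83), a range where background is not known. At 3 months it read 2.75, 2.91 and 2.83 in mutant retinas, against 2.58, 2.55 and 2.65 in normal retinas. At 4 months it read 2.69, 2.86 and 2.81 in mutant retinas, against 2.68, 2.56 and 2.64 in normal retinas. The genotypes did not overlap at these 2 ages, at 4 months only just, and overlapped at 1 and 2 months. Month by month the differences were 0.07 ± 0.07, 0.10 ± 0.07, 0.24 ± 0.07 (adjusted p = 0.0317) and 0.16 ± 0.07 (0.154), and over the 4 ages 0.14 ± 0.03 (0.00581). The call at 3 months ended without mutant replicate 2 (0.133), mutant replicate 3 (0.0804), normal replicate 1 (0.0889) or normal replicate 2 (0.111) of that age. A fold at this signal is uncertain. Both genotypes had their lowest B3galt2 mean at 2 months, at 2.52 in mutant and 2.42 in normal retinas.

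B3galt5, the remaining galactosyltransferase of N-acetylglucosamine, differed by 0.09 ± 0.06 over the 4 ages and did not pass (adjusted p = 0.258). It averaged 6.84 ± 0.17 in mutant and 6.58 ± 0.08 in normal retinas at 4 months (SD, n = 3 each), a difference of 0.27 ± 0.12 that did not pass (0.154). The single values there were 6.91, 6.97 and 6.66 in mutant retinas and 6.51, 6.66 and 6.55 in normal retinas, so mutant replicate 3 lay within the normal range. Within mutant retinas all 3 arrays of 4 months lay above the 3 of 1 month, which read 6.57, 6.50 and 6.62. That difference of 0.28 ± 0.12 did not pass (0.254). In normal retinas the ages overlapped and the same difference was -0.06 ± 0.12.

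B3galt4, the ganglioside galactosyltransferase, had the lowest difference of the 8 probe sets over the 4 ages, -0.15 ± 0.07, which did not pass (adjusted p = 0.143). At 2 months it read 7.12, 7.15 and 7.34 in mutant retinas, against 7.50, 7.46 and 7.71 in normal retinas. The 2 genotypes did not overlap there, with mutant retinas lower, where 8.35% of all probe sets were lower with no overlap, and the difference was -0.35 ± 0.14 (0.212). At 3 months it read 7.05, 7.04 and 7.16 in mutant and 7.73, 7.15 and 7.14 in normal retinas, where normal replicate 1 stood above the other 5. The genotypes overlapped at 1, 3 and 4 months. With the arrays quantile normalized again the difference over the 4 ages was -0.22 and passed (0.016), so the call depends on the scaling.

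B3galt6, the galactosyltransferase of the proteoglycan linker, differed by 0.03 ± 0.12 over the 4 ages (adjusted p = 0.874), with a 95% interval from -0.21 to 0.27. At 4 months it read 6.14, 6.04 and 5.13 in mutant retinas, against 5.36, 6.23 and 5.47 in normal retinas. The 2 genotypes overlapped at each age, and the spread of the 4-month arrays within a genotype exceeded the difference between genotypes. Its SD within groups, pooled over the 8 groups, was 0.31, above that of 96.1% of all probe sets. A difference of a size within the 95% interval is therefore not excluded.

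Counted by separation alone, 3 probe sets (B3gnt2 and both of B3galt1) were higher in all mutant arrays than in all normal arrays at 1 month, where 10.4% of all probe sets were. The count was 3 at 2 months, where 9.07% of all were, 5 at 3 months with B3galt2 and B3gnt5 added, where 13.2% were, and 4 at 4 months with B3galt2, where 17.1% were. With 3 arrays against 3 an exact permutation test of a single value cannot give a p below 0.1. Between ages, 4 probe sets (B3gnt2, B3galt1 with no suffix, B3galt5 and B3gnt5) were higher in all mutant arrays of 4 months than of 1 month, where 14.1% of all probe sets were, and 0 in normal retinas, where 8.03% were. In limma none of the 8 passed between these ages in mutant retinas (2.65% of all probe sets passed), and 4 had an unadjusted p under 0.05, as did 15.1% of all. In normal retinas none of the 8 and 0% of all passed, and 7.38% of all probe sets had an unadjusted p under 0.05. Nor did any of the 8 pass the F test of a change of the genotype difference with age (0.321% of all passed) or the test of the 4-month against the 1-month difference (0.241% passed). B3gnt2 alone had an unadjusted p under 0.05 in these, 0.0399 in the F test (14.4% of all) and 0.00539 in the other (11.4% of all). That it passed at 4 months and not at 1 month is therefore not shown to be a change with age.

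B3gnt5, the enzyme that starts lacto-series glycolipids, varied widely between the arrays of a group. At 2 months it read 4.44, 7.65 and 4.20 in mutant retinas, against 3.97, 8.05 and 3.91 in normal retinas. At 4 months it read 4.58, 4.60 and 4.53 in mutant retinas, against 7.12, 4.34 and 4.27 in normal retinas. Replicate 2 of both genotypes at 2 months and normal replicate 1 at 4 months thus stood far above the rest of their own group. At 1 month it read 3.99, 4.16 and 4.27 in mutant and 5.21, 3.87 and 3.95 in normal retinas, with normal replicate 1 the next highest of the 24 arrays. At 3 months it read 4.17, 4.37 and 4.85 in mutant and 3.73, 4.04 and 4.05 in normal retinas. With all arrays kept, that was the only age at which mutant arrays lay above normal arrays with no overlap (difference 0.52 ± 0.91, adjusted p = 0.733). With the high arrays of 2 and 4 months set aside, mutant arrays also lay above normal arrays at those ages. The values left were 4.44 and 4.20 against 3.97 and 3.91 at 2 months, and 4.53 to 4.60 against 4.34 and 4.27 at 4 months. At 1 month normal replicate 1 lay above all mutant arrays. The order itself, in few arrays, is a description. With these high arrays left out of the limma fit, the difference did not pass at 4 months (0.27, adjusted p = 0.596). Nor did it pass over the 4 ages (0.24, adjusted p = 0.211). Its SD within groups was 1.26, above that of 99.8% of all probe sets.

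The same 3 arrays had the highest Grifin signal. Grifin encodes a galectin-related protein known from the lens. In them B3gnt5 read 7.12 to 8.05 and Grifin 10.16 to 11.33, against 3.73 to 5.21 and 5.69 to 8.77 in the other 21 arrays. The 3 arrays and the other 21 form separate clusters, so the relation was tested only among the 21. The permutations shuffled arrays across genotypes and ages. Their p-values therefore do not separate differences between groups from a relation between single arrays. Among the 21, Pearson's r between the signals was 0.56 (permutation p = 0.0119, 0.0477 adjusted over the 4 relations computed). Spearman's rho was 0.29 (permutation p = 0.204, adjusted 0.312). B3gnt5 and Grifin were set together with earlier results of these data known, and the adjustment does not cover that choice. The 0.0477 is therefore not read as a passed test. Without the 2 arrays farthest from the median Grifin signal, normal replicate 1 of 1 month and mutant replicate 3 of 2 months, r was 0.29 (permutation p = 0.234, adjusted 0.312) and rho 0.18 (0.471). With 1 array left out at a time, r was 0.23 without normal replicate 1 of 1 month, 0.61 without mutant replicate 3 of 2 months and 0.54 to 0.70 without each of the other 19. The r within the 21 therefore rests on normal replicate 1 of 1 month. An r of this size was also not particular to Grifin. In the same 21 arrays the r of B3gnt5 with the other members ran from -0.40 (B3galt4) to 0.56 (B3gnt2).

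**Figure D3:**
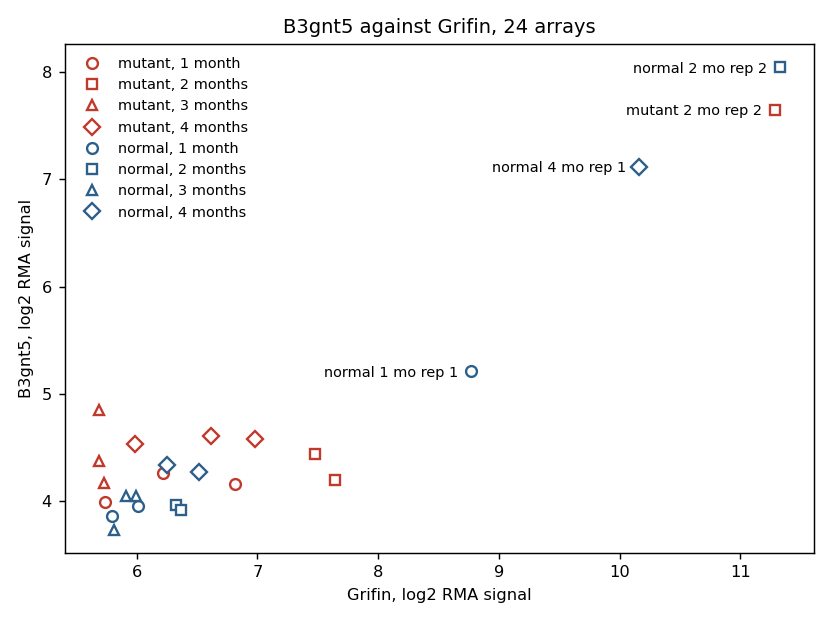
Log2 RMA signal of B3gnt5 (vertical axis) against that of Grifin (horizontal axis) in each of the 24 arrays, mutant in red and normal in blue, with a symbol for each age. The 3 named arrays at the upper right have B3gnt5 at 7.12 to 8.05, and normal replicate 1 of 1 month lies between them and the rest at 5.21.

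Over the 4 ages the B3gnt5 difference was -0.06 ± 0.46 (adjusted p = 0.937). Without the 3 arrays it was 0.24 (0.211), and it was 0.17 (0.32) with the Grifin and Dcn covariates, so its sign depends on how these arrays are treated. In the 21 other arrays the median B3gnt5 signal was 4.37 in mutant (n = 11) and 4.01 in normal retinas (n = 10). Of 11 lens genes listed as markers only Grifin was measured, so lens RNA cannot be read from several genes, and its part in the B3gnt5 signal was not tested. No other member had its highest signal in these arrays. The nearest were B3galt4, the fifth highest of 24 in the normal array of 2 months and the 7th in that of 4 months, and B3gnt2, the 7th highest in the mutant array of 2 months. On both B3galt1 probe sets and B3galt2 the normal array of 2 months was the lowest of all 24, and the mutant array of 2 months was the lowest for B3galt5.

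The B3gnt2, B3galt1 and B3galt2 calls over the 4 ages held without the 3 arrays and with the covariates, while those of 2 months and the B3gnt2 call of 3 months did not hold with the covariates. Other signals of the retina moved with the same genotypes. The counts of markers that follow stand beside 13.8% of all probe sets that passed higher over the 4 ages and 8.83% that passed lower. The marker list for microglia and macrophages had 4 of 9 genes on the array, on 6 probe sets, and all 6 were higher in mutant retinas, with the mean level of the list between 5.03 and 5.87 in mutant arrays and between 4.63 and 4.90 in normal arrays. Of the Müller glia and astrocyte list 4 of 9 genes were measured (Vcam1, Icam1, Fgf2 and Cd44) and all 4 were higher, with the list mean between 5.45 and 6.52 in mutant arrays and between 4.94 and 5.59 in normal arrays. Glul, Rlbp1, Gfap and Vim were not measured here. Fgf2 was dim, with means of 3.7 in mutant and 3.4 in normal retinas, below the 25th percentile of mean signals (3.83). Whether other cells gave part of the signals of this list was not tested. Gnb1, the only rod gene measured of 9, was 0.21 ± 0.06 lower in mutant retinas (12.62 to 13.04 in mutant arrays, against 12.64 to 13.26 in normal ones, adjusted p = 0.0121), and it is expressed in other cells too. Of the endothelial list 2 of 4 measured genes were higher (Mcam and Cd34). None of 4 measured connective tissue genes passed, nor did L1cam, the only gene measured of the inner retina list, and of 2 blood genes Pf4 was lower. No marker of cones or of the pigment epithelium was measured here. The part of these cell types in the B3gnt2 and B3galt1 differences was not tested.

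The named genes whose signal ran most like each member over the 24 arrays were found by Pearson's r, given here as a description, since arrays of a genotype share its differences. B3gnt2 was most like Tgfbr2 (the plain probe set of a receptor of TGF-beta, r = 0.88) and Csf1r (a receptor of microglia and macrophages, 0.87) and least like Pla2r1 (-0.79). Both B3galt1 probe sets were most like Cxcl12, a chemokine (0.90 and, for x, 0.93), and Notch1, a signalling receptor (0.90 and 0.92), and the one with no suffix was least like B4galt1 (-0.78). The x probe set was least like Pfdn5 (-0.78). B3galt2 was most like Mgat4c (0.90) and Igf1 (0.87) and least like Gbf1 (-0.82). B3galt5 was most like Csgalnact1, which starts chondroitin chains (0.90), and Copg1, a subunit of the vesicle coat (0.89), and least like Hk1 (-0.74). B3galt4 had lower top values, 0.78 with Smpd1 and 0.75 with Gfus, and was least like B4galt6 (-0.68). B3galt6 was like no gene above 0.66 (Galnt16), then Ugt2a2 (0.64), and was least like Ssr3 (-0.58).

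For B3gnt5 the same rule named Wnt7b (0.95), Igfbp7 (0.94) and, as least like, Ugt2a2 (-0.62). Grifin came after Wnt7b and Igfbp7, at rank 3 (0.93). Over 24 arrays the r of B3gnt5 is set by the 3 arrays that stand apart. In the other 21 the values for Wnt7b, Igfbp7 and Ugt2a2 were 0.25, 0.44 and -0.25, so none of these genes is given as like B3gnt5. For the genes named for the other members the widest shift was that of Hk1 for B3galt5, which was -0.68 over the 21 arrays. Among the members themselves, B3gnt2 and B3galt1 had an r of 0.83 (0.85 for x) and B3galt4 ran against B3galt1 (-0.60 and -0.56).

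Other genes of the same pathways were read from lists that share some genes. Of all probe sets 13.8% passed higher over the 4 ages and 8.83% lower, and the count of each list below is to be read beside these shares. Of 13 measured genes of the wider beta-1,3 family, which holds the Fringe enzymes that extend O-fucose on Notch, the core 1 synthase and its chaperone, 2 were higher, 0 lower and 11 did not pass over the 4 ages. The 2 were B3galnt1, which makes globoside (0.33 ± 0.10, adjusted p = 0.0206), and B3gnt9 (0.16 ± 0.05, 0.022). The family's median difference was 0.02, against -0.03 over all probe sets. B3gnt3, B3gnt4, B3gnt6 and B3gnt7, relatives of B3gnt2, differed by 0.02, -0.08, 0.01 and -0.11 and did not pass.

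The genes that work on the same lactosamine chains as B3gnt2 moved in both directions. Of their 13 probe sets (11 genes) 6 were higher, 2 lower and 5 did not pass, with a median of 0.18. B4galt1, a beta-1,4-galactosyltransferase that alternates with beta-1,3-N-acetylglucosaminyltransferases, was lower in mutant retinas (-0.36 ± 0.05, adjusted p = 1.1e-05), as was its relative B4galt3 (-0.17 ± 0.06, 0.0372). B4galt4 was higher (0.24 ± 0.05, 0.00181). The genes of chain ends and branches that were higher were the sialyltransferases St3gal6 (0.35 ± 0.08), St3gal4 (0.32 ± 0.07) and St6gal1 (0.22 ± 0.05), the fucosyltransferase Fut9 (0.29 ± 0.06) and the branching enzyme Gcnt2 (0.34 ± 0.08). At 4 months St6gal1 was 0.53 ± 0.11 higher (0.00212) and B4galt1 differed by -0.63 ± 0.10 (0.00019).

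Of the 13 genes of ganglioside synthesis beside B3galt4, 5 were higher, 2 lower and 6 did not pass, with a median of 0.16. The first steps were among those higher: Ugcg, which makes glucosylceramide (0.28 ± 0.05), and the lactosylceramide synthases B4galt5 (0.44 ± 0.06, adjusted p = 1.83e-05) and B4galt6 (0.35 ± 0.09). So were the sialyltransferases St6galnac5 (0.32 ± 0.08) and St8sia5 (0.21 ± 0.06). St8sia1, the GD3 synthase, was lower (-0.43 ± 0.07, adjusted p = 0.000212), and so was St3gal1 (-0.34 ± 0.07, 0.0015).

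In the list of the lacto-series, which B3gnt5 starts, and the globo-series, 3 of 9 probe sets (8 genes) were higher, 2 lower and 4 did not pass. The median was -0.08. Of these B4galt1, B4galt4, Gcnt2 and B3galnt1 are given above. The plain probe set of Fut2, a fucosyltransferase, was lower (-0.15 ± 0.04, adjusted p = 0.0196). Its mean was 3.78 in mutant and 3.93 in normal retinas, near the 25th percentile. The s probe set of Fut2 did not pass (-0.04 ± 0.04, adjusted p = 0.55). Of 5 measured genes of the proteoglycan linker beside B3galt6, 0 were higher, 2 lower and 3 did not pass. Xylt1, which adds the first sugar, was lower (-0.16 ± 0.04, 0.00696), and so was B4galt7, which adds the next one (-0.13 ± 0.04, 0.0196). Of 5 measured lysosomal genes that remove galactose and N-acetylhexosamine, 1 was higher, the activator precursor Psap (0.17 ± 0.04, 0.00696), and Gm2a had the next smallest p (0.14 ± 0.06, 0.0935).

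**Figure D4:**
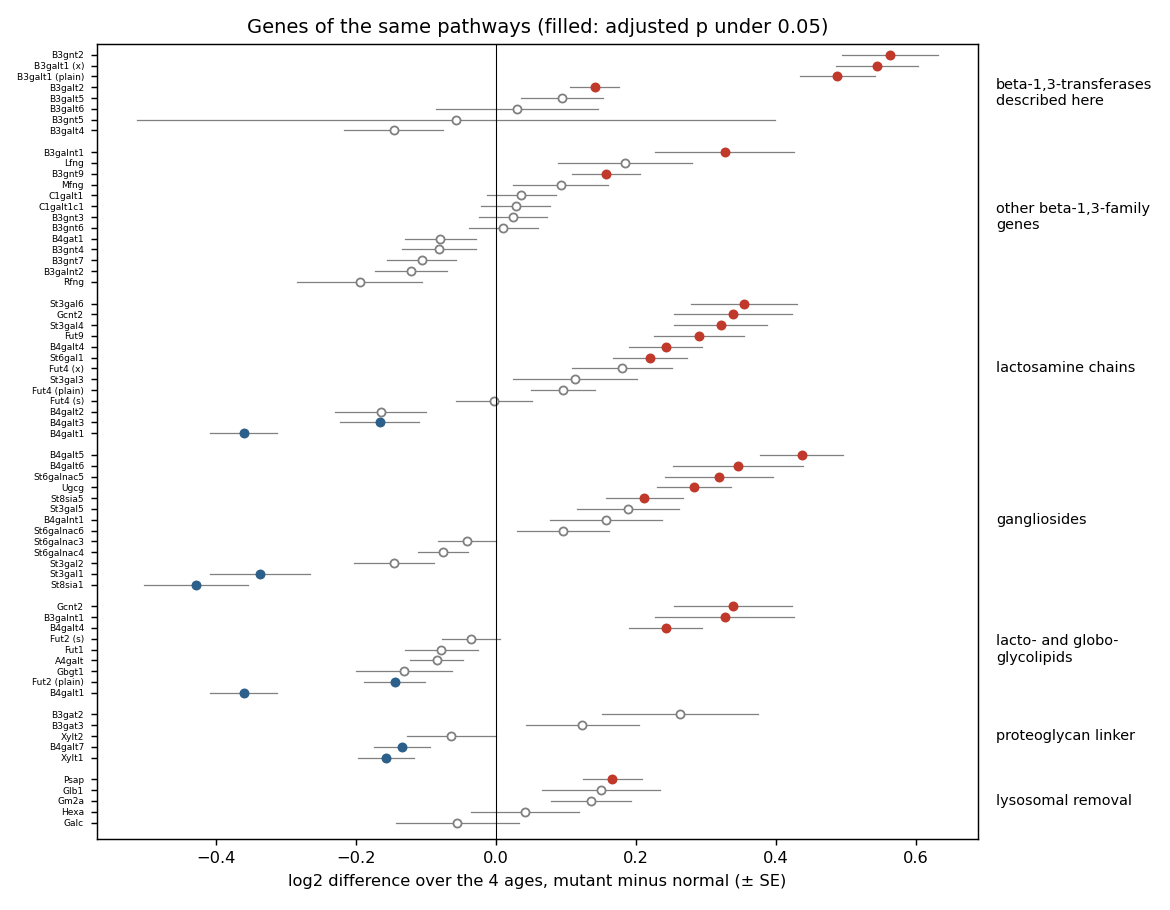
Log2 difference over the 4 ages, mutant minus normal, with its SE, for the 8 probe sets and for each list of pathway genes in order of size. Red filled circles passed higher in mutant retinas, blue filled circles passed lower and open circles did not pass. B3gnt2 and both B3galt1 probe sets lie at 0.49 to 0.56, and B4galt1 and St8sia1 at -0.36 and -0.43.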

How the data were processed

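Total RNA of 24 retina samples was hybridized as biotin-labelled cRNA, 1 array a sample. The deposited values are log2 signals per probe set, made by the authors with RMA per the submitters' processing notes, whose version and steps are not given in the sources used here. They ran from 1.9 to 14.17, with array medians of 5.15 to 5.34. Of 1246 probe sets 963 have a gene name, through a match of the transcript in the probe set's name to RefSeq. No file holds counts or background, so the number of arrays limits the precision.

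All probe sets were fitted with limma 3.58.1 in R 4.3.3 (8 group means, eBayes, 16 residual and 4.37 prior degrees of freedom), with no filter and p-values two-sided and adjusted by Benjamini-Hochberg within a comparison. The fit was tested on simulated data. Correlations used 100000 permutations (scipy 1.17.1). No 2 arrays were identical. The members and lists were chosen with earlier results of these data known. All probe sets of the 7 genes, Grifin and Dcn were named, the 2 most and 1 least like genes of each, and of each pathway list those past 0.05, or the 2 with the smallest p where fewer than 2 passed.

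Equal replicate numbers gave correlated deviations (r above 0.1) in 3 of 12 pairs, all at 2 months, so the number was a block only in alternatives. The others were rescaling, filters on dim probe sets, other variance models, array weights, fewer arrays, covariates, a stricter threshold, the mean of both B3galt1 probe sets and leaving out each array.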

Additional observations from a re-analysis of the deposited data

How the results depend on the processing

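The 4 calls over the 4 ages (B3gnt2, both B3galt1 probe sets and B3galt2) held under every alternative that kept the probe set and without each array in turn. B3galt2 is lost to both filters on dim probe sets and B3gnt5 to the stricter one, so they have no value there. A stricter threshold of 0.01 left the count of members over the 4 ages at 4, and 150 of all probe sets in place of 282. The split of all calls into higher and lower depends on the scaling: 61.0% were higher over the 4 ages as reported, 70.3% with arrays centred and 50.6% quantile normalized again, and at 4 months 73.3% as reported and 53.5% quantile normalized again. The cause of each change named here was not tested.

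The count of members past the threshold at 1 month was 0, and 1 with array weights or only the arrays compared (the B3galt1 x probe set). At 2 months it was 3, and 1 with arrays centred, quantile normalized again or an intensity trend. It was 0 with only the arrays compared, without the 3 arrays of high Grifin signal and with the Grifin and Dcn covariates. At 3 months it was 4, and 2 with array weights or only the arrays compared, where B3gnt2 and B3galt2 were lost, and 3 with the covariates, where B3gnt2 was lost (0.47, adjusted p = 0.0557). For the 4-month against the 1-month difference it was 1 with array weights (B3gnt2), and for 4 months against 1 month in mutant retinas 1 with array weights (B3galt5) or only the arrays compared (B3gnt5). At 4 months B3galt5 passed with array weights (0.33, adjusted p = 0.0213). Leaving out single arrays gave counts of 0 to 1 at 1 month, 0 to 3 at 2 months, 2 to 4 at 3 months and 0 to 1 for the difference between ages.

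Counts over all probe sets, against which the members were read, moved further at single ages. At 1 month 4 passed, and 7 to 52 under the alternatives that moved the count by over 1.5 times. At 2 months 43 passed, and 1 without the 3 arrays, 2 with only the arrays compared, 6 with the covariates, 16 with the block on 6 arrays and 68 with array weights. With only the arrays compared the counts were 40 in place of 150 at 3 months and 103 in place of 161 at 4 months. The F test gave 0 to 51 in place of 4, and the 4-month against the 1-month difference 0 to 81 in place of 3. Between ages, array weights gave 94 in place of 33 in mutant and 26 in place of 0 in normal retinas.

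With the replicate number as a block, the count of members was 1 at 2 months, and 0 on the 6 arrays of 2 months alone. The block changed no other call of the 8 probe sets.

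Signs turned only for differences that did not pass. Quantile normalized again, B3galt5 was -0.0185 over the 4 ages and -0.0735 at 3 months, and B3galt6 -0.0352 over the 4 ages. Without the 3 arrays, B3galt6 was -0.0630 over the 4 ages, -0.0091 at 2 and -0.0794 at 4 months. B3gnt5 was then 0.24 over the 4 ages, 0.27 at 4 months, 0.47 for the difference between ages and -0.0394 for 4 months against 1 month in normal retinas. With the covariates B3gnt5 was 0.17 over the 4 ages, 0.21 at 1 month, -0.22 at 2 months and 0.12 at 4 months, and B3galt6 0.0513 at 3 months. With array weights B3gnt5 was -0.10 at 2 months and 0.21 for the difference between ages, and B3galt4 0.0103 at 4 months. With arrays centred B3galt6 was 0.0116 at 3 months. B3galt1 (no suffix) at 4 months against 1 month in normal retinas was -0.0011 with arrays centred and -0.0134 with array weights.

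Without single arrays B3galt6 ran from -0.0176 to 0.11 over the 4 ages, from -0.15 to 0.0446 at 3 months, from -0.10 to 0.41 at 4 months and from -0.40 to 0.10 between ages in mutant retinas. B3gnt5 ran from -0.33 to 0.28 over the 4 ages, from -0.44 to 0.23 at 1 month, from -0.99 to 1.49 at 2 months and from -1.15 to 0.27 at 4 months. For the difference between ages it ran from -0.95 to 0.47, and between ages in normal retinas from -0.0394 to 1.38. B3galt5 ran from -0.022 to 0.19 at 3 months, B3galt4 from -0.20 to 0.0553 at 4 months and B3galt1 (no suffix) from -0.0366 to 0.0937 between ages in normal retinas.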
